A study of Mus musculus with 2 samples.

Results

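The interferon regulatory factor (IRF) and PRDM1 motifs were followed across single cells of the embryonic mouse retina. Of the 579 motifs counted in each cell, 9 were chosen by name, whatever their case: PRDM1, IRF1, IRF2, IRF3, IRF4, IRF5, IRF7, IRF8 and IRF9. They were read in 890 of 2422 barcodes of replicate 1 and 1051 of 3033 barcodes of replicate 2. The assay was droplet-based single-cell sequencing of transposase-accessible chromatin, and the sample was wild-type (WT) retina at stage E14.5. There were 2 replicate libraries of this 1 group, with no treatment, no mutant and no second age. The series belongs to a study of a regulatory DNA module in ganglion cell formation. Whether the libraries came from separate animals is not given in the sources used here, so SDs and p-values cover no more than the difference between these libraries, possibly a technical one.

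IRF proteins are the transcription factors of the interferon response and share a DNA-binding domain that reads a repeated short core. PRDM1, also called Blimp1, is a zinc finger repressor best known from plasma cells, and it reads an element that overlaps the IRF one. In the developing retina PRDM1 is made in photoreceptor precursors downstream of OTX2, where it holds back the bipolar cell fate. CRX and OTX2 are the homeodomain factors of the photoreceptor lineage, proneural factors such as NEUROD1 mark cells leaving the cycle, TEAD and SOX factors act in progenitors, and POU4F factors act in ganglion cells. The question put to the data was whether the PRDM1 motif moved with the IRF motifs, with CRX/OTX motifs or with progenitor motifs.

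A motif count is the number of transposase cuts in all peaks that hold the motif. It is accessibility of those peaks, not binding by the factor or its expression, and motifs of like sequence share peaks and counts. No member had the same counts as another motif in either library. Levels are given as CPM, the counts per 1000000 motif counts of a library's kept cells. Their order also depends on how many peaks hold each motif, which was not analysed here.

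The kept cells held 98.3% and 97.3% of the counts, with median totals of 3519151 and 3523871 counts per cell. Of the barcodes, 1828 occurred in both libraries, and only the deeper copy was used. Of the 1941 kept cells, 872 in replicate 1 and 925 in replicate 2 had such a shallow copy in the other library. Each barcode was used in 1 library only; leaving out every shared barcode would have kept 18 and 126 cells, so no comparison was made without them.

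PRDM1 was a motif of middling level. It stood at 269 CPM in replicate 1 and 259 CPM in replicate 2, a mean of 264 ± 6.92 (SD, n = 2), and ranked 367 and 368 of 579. A kept cell of replicate 1 held a lowest, median and highest PRDM1 count of 68, 935 and 6519, and one of replicate 2 held 52, 914 and 4998. No kept cell lacked it.

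The IRF motifs spread over a 185-fold range of levels. IRF1, an interferon-induced activator, stood far above the rest at 5013 and 5175 CPM. IRF3, which is activated when cells sense viral nucleic acid, followed at 334 and 341 CPM. IRF2, a repressor that competes with IRF1, stood at 211 CPM in both libraries, next below PRDM1. IRF7, the amplifier of type I interferon, had 87.0 and 98.0 CPM. IRF9, the DNA-binding subunit of the interferon-stimulated gene factor complex, had 73.9 and 72.8 CPM. The 3 rarest members are the ones best known from immune cells. IRF5, a factor of inflammatory macrophages, had 38.2 and 36.3 CPM, IRF8 of the myeloid lineage 30.1 and 32.3 CPM, and IRF4 of lymphoid cells 27.8 and 27.2 CPM. The order of the 9 levels was the same in both libraries, and no neighbours in it overlapped between libraries. IRF7 differed most between libraries, by -0.17 on the log2 scale (replicate 1 against replicate 2). In all, 8 of the 9 members differed between libraries by more than the median motif, whose absolute log2 ratio was 0.021.

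Counts of the members came mostly in even numbers. Among barcodes with 1 to 8 PRDM1 counts, 93.4% in replicate 1 and 95.2% in replicate 2 had an even count. For IRF8, the shares were 97.4% and 98.3%. Of all replicate 1 barcodes, 187 had 2 PRDM1 counts, whereas 7 had 1 and 12 had 3. The same alternation continued up to 12 counts in both libraries. Counting noise was therefore computed with a variance of 2 times the Poisson value as well as with the Poisson value itself.

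**Figure D1:**
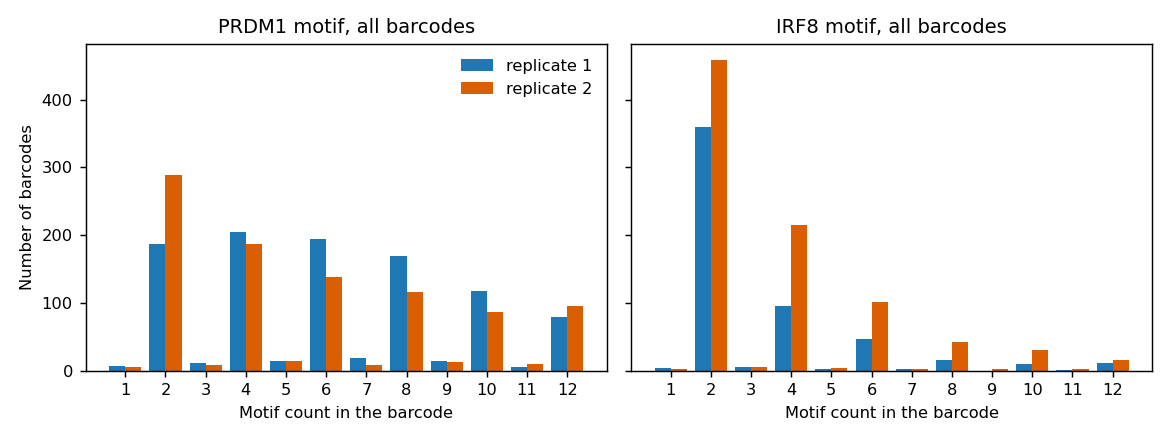
Number of barcodes (vertical axis) by PRDM1 or IRF8 motif count in the barcode (horizontal axis), all barcodes, 1 bar colour per replicate library. Bars at even counts are tall and bars at odd counts short in both libraries, as with 187 barcodes at 2 and 12 at 3 PRDM1 counts in replicate 1.

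Variation among cells was low for PRDM1 and high for the rare IRF motifs. The coefficient of variation (CV) in excess of 2 times Poisson noise was 4.16% ± 0.14 (SD, n = 2) for PRDM1, against medians over all 579 motifs of 4.94% and 4.84% in the libraries. With Poisson noise it was 5.96% ± 0.12 (SD, n = 2). IRF4 and IRF8 reached 11.7% each, IRF5 11.0%, IRF9 9.0%, IRF7 5.93%, IRF2 5.64%, IRF3 3.28% and IRF1 1.90%. Rare motifs had a higher excess CV, so each member was set beside the 20 motifs nearest in level. PRDM1, IRF1, IRF3 and IRF7 lay under the medians of their neighbours, 5.36%, 3.34%, 5.11% and 6.57%. IRF2, IRF4, IRF5, IRF8 and IRF9 lay above theirs, 5.16%, 8.90%, 8.48%, 8.48% and 6.70%. Except for IRF3, which was under its lowest neighbour at 3.41%, each member lay within the range of its neighbours. For PRDM1, 35.6% and 29.2% of the variance among cells exceeded that counting noise. This share rests on the noise variance of 2 times Poisson, and motifs that share peaks also share noise.

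The IRF motifs did not move as 1 block. IRF4, IRF5 and IRF8 formed a tight group. Across cells, IRF4 and IRF5 correlated at r = 0.85 in replicate 1 and 0.82 in replicate 2, IRF4 and IRF8 at 0.51 and 0.58, and IRF5 and IRF8 at 0.52 and 0.48. IRF9 was tied to the group through IRF8, at 0.53 and 0.49. IRF1 and IRF2 correlated at 0.37 and 0.33, but not as each other's closest motif. Among 578 motifs, IRF2 ranked 39th for IRF1 and IRF1 ranked 27th for IRF2. IRF3 and IRF7 had only low correlations: the highest of IRF3 with any motif was 0.20 with IRF1, as a mean of the libraries. Among the 578 motifs, IRF1 and IRF9 still ranked 1st and 2nd for IRF3, whereas IRF8, the first IRF motif for IRF7, ranked 13th. Of the variance among cells, 25.4% and 29.5% exceeded 2 times Poisson noise for IRF3, and 27.6% and 23.2% for IRF7. Over the 28 IRF pairs the median r was 0.093 and 7 pairs (25%) exceeded 0.2. Over all 167331 pairs of the 579 motifs the median was 0.0036 and 13.7% exceeded 0.2. These are descriptions across cells of a library, which share peaks, depth and base composition.

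PRDM1 had low correlations with every IRF motif, as it had with motifs in general. Over the motifs that were no member, its 95th percentile of r was 0.16 and its highest r 0.21. Counting noise, if independent between motifs, would hold r for PRDM1 to at most 0.60 and 0.54 in the libraries. Its correlation with the 8 IRF motifs ran from 0.020 (IRF5) to 0.16 (IRF1), with a median of 0.068, against a median of 0.019 over the 570 motifs that were no member. Its correlations with IRF1 ranked 33rd and with IRF9 ranked 54th among 578 motifs, whereas IRF3 and IRF5 ranked 252nd and 292nd. With IRF4 the sign differed between libraries, at -0.026 and 0.13.

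**Figure D2:**
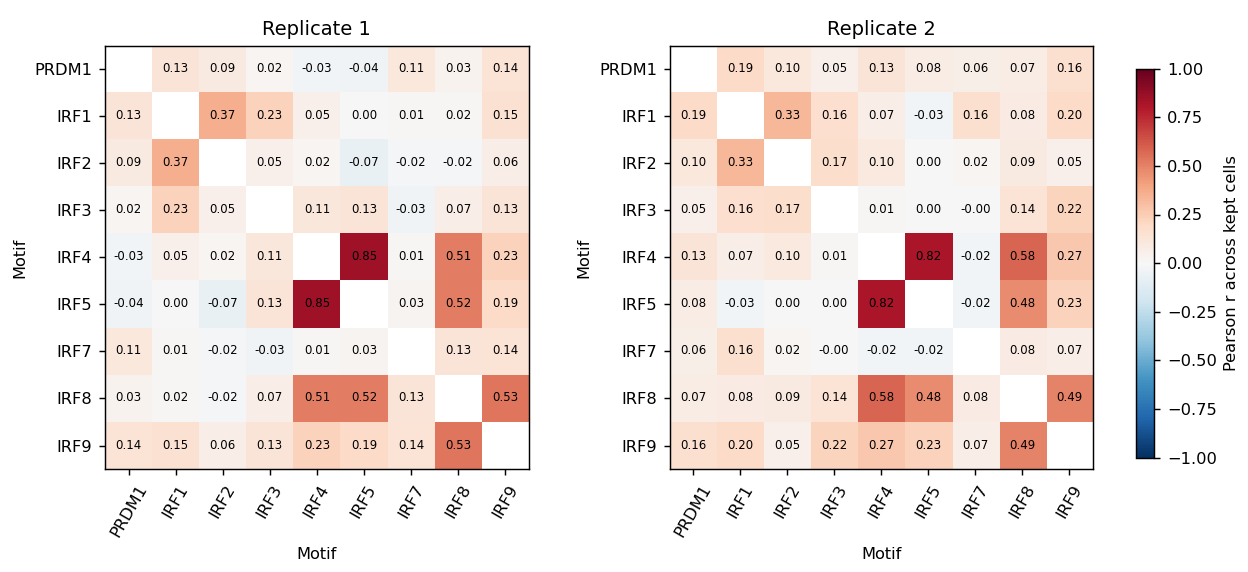
Pearson correlation across kept cells between the members, in replicate 1 (left, 890 cells) and replicate 2 (right, 1051 cells); rows and columns are motifs and colour runs from -1 to 1. The block of IRF4, IRF5 and IRF8 stands out in both libraries, and the PRDM1 row is pale, with no value above 0.19.

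The 3 motifs outside the list most like PRDM1 were homeodomain motifs: NOTO at a mean r of 0.21, MEOX2 at 0.20 and PDX1 at 0.20. IRF1 was most like Foxj2, FOXC1 and Sox5, at 0.56, 0.51 and 0.50. IRF2 was most like TEAD3 at 0.44, followed by MSX1 and MSX2 at 0.41, 2 motifs with equal values. IRF9 was most like Neurog1, a proneural motif, at 0.30. IRF7 was most like ONECUT1, ONECUT2 and Dmbx1, at 0.18, 0.17 and 0.14. IRF5 and IRF4 were both most like OTX1, at 0.20 and 0.14. For IRF5 the next were TFAP2A(var.2) and TFAP2C, and for IRF4 they were THAP1 and CEBPA. IRF8 was most like MAFG at 0.19 and RHOXF1 at 0.18. IRF3 had no motif outside the list above 0.13, CENPB being the first.

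The partner motifs of the interferon and ETS families stayed weakly tied to the members. Stat6 correlated with PRDM1 at 0.15 and 0.092 and with the mean score of the 8 IRF motifs at a mean r of 0.13. Stat4 correlated with PRDM1 at -0.14 and -0.20. SPI1 and SPIB, the ETS factors that bind next to IRF4 and IRF8 in immune cells, diverged: the IRF score correlated with SPI1 at 0.13 and 0.12 and with SPIB at -0.19 and -0.13. STAT3, Stat5a::Stat5b and SPIC lay between -0.039 and 0.074 in their mean r with the IRF score and between 0.026 and 0.088 with PRDM1.

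To compare PRDM1 with the motif families, each cell was given a score per family: the mean over the family's motifs of log2(CPM + 1), with cell depth regressed out and each motif scaled to unit SD. Cells were then cut into quintiles by that score within each library, and the quintiles are ranges of a continuous score, not cell types. The highest and lowest quintiles held 178 cells each in replicate 1 and 210 each in replicate 2. For the CRX/OTX score, 47 and 49 cells lay within 0.1 SD of the upper limit, and 81 and 109 within 0.1 SD of the lower one.

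PRDM1 climbed steadily with the CRX/OTX score. In replicate 1 its level in the 5 quintiles, from lowest to highest, was 264, 266, 268, 270 and 275 CPM. In replicate 2 it was 255, 258, 259, 260 and 263 CPM. All 4 steps went up in both libraries. The levels of replicate 1 lay above those of replicate 2 in the matching quintile, so the shift stands within each library. Comparing the highest with the lowest quintile, PRDM1 was higher on the log2 scale by 0.060 in replicate 1 and 0.045 in replicate 2. After TMM scaling the values were 0.056 and 0.042. The fitted log2 fold was 0.049 ± 0.0060 (SE), a rise of 3.44%, with an edgeR adjusted p of 0.0139. In this comparison 27.6% of all 579 motifs were called higher, and 57.3% in either direction, so the call itself was common. The 7 CRX/OTX motifs that set the score had a median log2 fold of 0.12.

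The CRX/OTX-high cells were also rich in proneural motifs. Their median proneural score was 0.83 and 0.80 in the libraries, against -0.34 and -0.30 in the CRX/OTX-low cells, and their median TEAD score was -0.51 and -0.53 against -0.073 and 0.093. With the proneural score regressed out of the CRX/OTX score, the PRDM1 log2 fold was 0.035 ± 0.0091 (SE) and stayed called (edgeR adjusted p = 0.000761). With the CRX/OTX score regressed out of the proneural score, it was 0.023 ± 0.0060 (SE) and was no longer called (edgeR adjusted p = 0.0613). Both of these settings were chosen after seeing the data. Whether the 0.035 and 0.023 folds differ was not tested, so a call in 1 fit only does not rank the scores.

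Against the proneural score PRDM1 was flat over the lower quintiles and high in the top one. In replicate 1 the 4 lower quintiles lay between 266 and 268 CPM and the highest at 275 CPM. In replicate 2 the lower quintiles lay between 257 and 260 CPM and the highest at 263 CPM. Without TMM scaling, the highest quintile lay above the lowest by 0.039 and 0.033 on the log2 scale in the libraries. The fitted log2 fold of the highest against the lowest quintile was 0.047 ± 0.011 (SE), with an edgeR adjusted p of 4.63e-05, where 38.5% of all motifs were called higher and 62.7% in either direction. In the middle tercile of cells by depth it was 0.022 and not called (edgeR adjusted p = 0.110).

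PRDM1 was also higher in IRF-high than in IRF-low cells. Its level rose from 267 to 272 CPM in replicate 1 and from 255 to 262 CPM in replicate 2. The fitted log2 fold was 0.030 ± 0.011 (SE), with an edgeR adjusted p of 0.0146, where 18.3% of all motifs were called higher and 21.1% lower. DESeq2 did not call it (adjusted p = 0.0868), nor did edgeR in the middle tercile of cells by depth (0.015, adjusted p = 0.342). Whether the fold with the CRX/OTX score exceeds that with the IRF score was not tested. The IRF-high cells were shallower, with a median total 0.87 and 0.86 times that of the IRF-low cells, and the part of depth in the result was not tested beyond these settings.

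The progenitor scores gave no call for PRDM1. Its log2 fold was 0.0100 ± 0.0080 (SE) with the TEAD score (edgeR adjusted p = 0.284) and -0.0021 ± 0.012 (SE) with the SOX score (edgeR adjusted p = 0.872). In these comparisons 80.1% and 76.3% of all motifs were called in either direction, so PRDM1 was among the minority without a call. With the POU4F score the log2 fold was -0.014 ± 0.0087 (SE, edgeR adjusted p = 0.224), while 59.9% of motifs were called. Without TMM scaling that fold was -0.024 and called (edgeR adjusted p = 0.0245), as it was in the middle tercile of cells by depth (-0.033, edgeR adjusted p = 0.0386). The highest POU4F quintile had the lowest PRDM1 level of the 5 in both libraries, 264 and 252 CPM, against 271 and 262 CPM in the quintile next to it. With the SP/KLF score, a family of promoter motifs, the log2 fold was -0.0057 ± 0.0098 (SE, edgeR adjusted p = 0.595), where 78.2% of motifs were called.

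**Figure D3:**
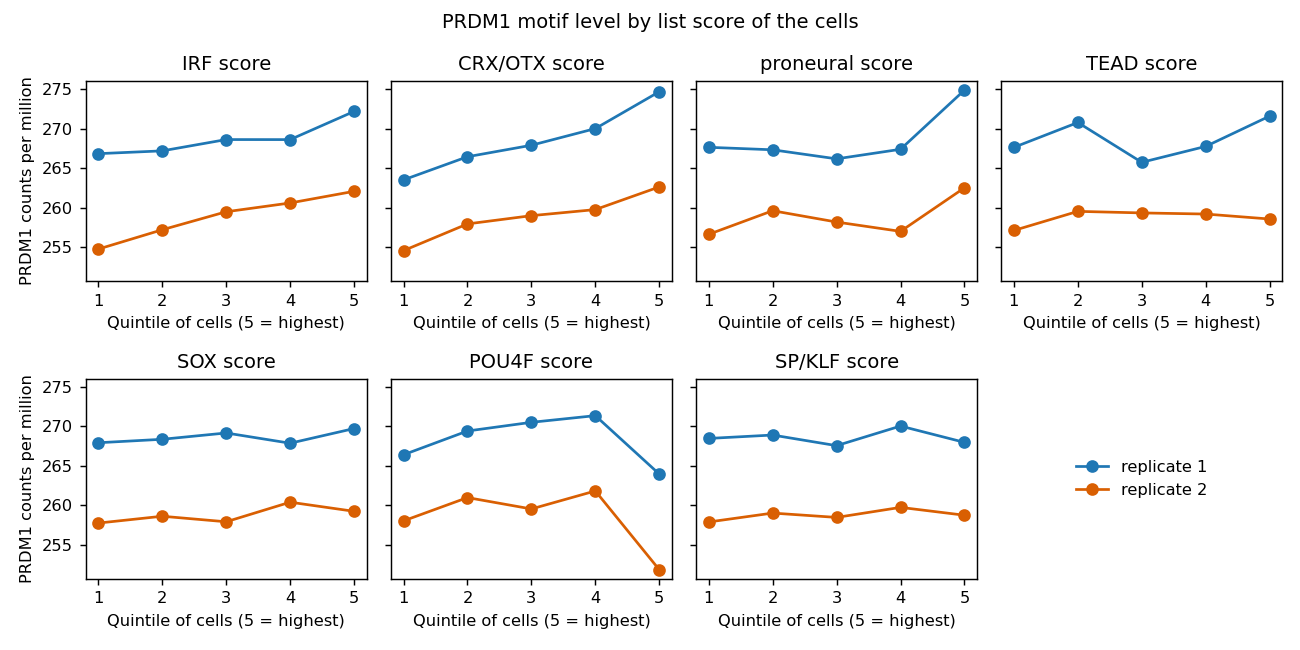
PRDM1 level in CPM (vertical axis, not starting at 0) in the 5 quintiles of cells ranked by each family score (horizontal axis, 5 is the highest), 1 line per replicate library. With the CRX/OTX score both lines climb at each step, from 264 to 275 and from 255 to 263 CPM, and with the POU4F score both drop in the highest quintile.

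Across all kept cells, the order of the CRX/OTX, IRF, proneural and SOX correlations of PRDM1 differed between libraries. The TEAD, POU4F and SP/KLF correlations came below these, in that order, in both libraries. Several correlations were different in the middle tercile of cells by depth. Whether depth caused this was not tested. PRDM1 correlated with the CRX/OTX score at 0.21 in replicate 1 and 0.14 in replicate 2, with the IRF score at 0.11 and 0.20, with the proneural score at 0.18 and 0.10, and with the SOX score at 0.10 and 0.14. With the TEAD, POU4F and SP/KLF scores the mean r was 0.064, -0.075 and -0.13. In the middle tercile of cells by depth, the mean CRX/OTX value was 0.25, the IRF value 0.090 and the POU4F value -0.22. There the SOX value changed sign to -0.0078 and the SP/KLF value to 0.097.

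In the quintile comparisons, IRF motifs were called in both directions, as motifs in general were. With the TEAD, SOX and proneural scores, 80.1%, 76.3% and 62.7% of all 579 motifs were called in either direction. IRF2 took the progenitor side: it was higher in TEAD-high cells by 0.12 and in SOX-high cells by 0.084 on the log2 scale. Its log2 fold was -0.096 in proneural-high, -0.077 in POU4F-high, -0.052 in SP/KLF-high and -0.028 in CRX/OTX-high cells, each called lower by edgeR. The last of these did not keep its call and direction under 6 of 12 alternatives. In replicate 1 its level was 199 CPM in TEAD-low and 217 CPM in TEAD-high cells after TMM scaling, and in replicate 2 it was likewise 199 and 217 CPM. The CRX/OTX fold turned to 0.033 with the proneural score regressed out.

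IRF9 took the opposite side with the proneural, CRX/OTX and TEAD scores. It was higher in proneural-high cells by 0.16 ± 0.017 (SE) on the log2 scale (edgeR adjusted p = 6.42e-19) and in CRX/OTX-high cells by 0.13 ± 0.010 (SE, edgeR adjusted p = 0.00701). With no replicate block, IRF9 was called in neither (edgeR adjusted p = 0.0734 and 0.142), where 5.70% and 0% of all motifs were called. In CRX/OTX-low and CRX/OTX-high cells it stood at 71.7 and 78.9 CPM in replicate 1 and at 70.8 and 76.7 CPM in replicate 2, after TMM scaling. It was called lower in TEAD-high cells, at -0.051, and in POU4F-high cells, at -0.057. With the SOX score it was not called (-0.028, edgeR adjusted p = 0.110). Across all kept cells IRF9 correlated with the proneural score at 0.27 in both libraries and with the CRX/OTX score at 0.26 and 0.24. With the progenitor scores its sign differed between libraries, at -0.026 and 0.040 for TEAD and -0.0025 and 0.15 for SOX. IRF5 and IRF8 went with IRF9 in part. Both were called lower in SOX-high cells, IRF5 at -0.14 and IRF8 at -0.13, and in TEAD-high cells, at -0.10 and -0.12. Across all kept cells, the correlations of IRF5 with these scores were negative in both libraries. Those of IRF8 changed sign between libraries, at -0.069 and 0.078 for SOX and -0.083 and 0.014 for TEAD. In proneural-high cells IRF5 and IRF8 were higher by 0.072 and 0.10, calls lost under 5 of 12 and 4 of 12 alternatives. IRF5 and IRF4 were also higher in SP/KLF-high cells, by 0.11 and 0.074, calls lost under 1 of 10 and 3 of 10 alternatives.

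The remaining members moved less or in fewer comparisons. IRF1 went with IRF2 where it was called: it was higher in TEAD-high cells by 0.016 and had log2 folds of -0.016 in proneural-high and -0.027 in POU4F-high cells. IRF7 went with IRF9 in TEAD-high cells, at -0.090, and in proneural-high cells, at 0.063, the latter a call lost under 5 of 12 alternatives. It was the member called higher in POU4F-high cells, by 0.037, a call lost under 8 of 11 alternatives, DESeq2 (adjusted p = 0.137) and limma among them. IRF3 was higher by 0.021 in SP/KLF-high and 0.023 in proneural-high cells, the latter a call lost under 10 of 12 alternatives, DESeq2 (adjusted p = 0.299) and limma (adjusted p = 0.245) among them. It was lower in SOX-high cells, at -0.035, and TEAD-high cells, at -0.023, calls lost under 3 of 11 and 4 of 11 alternatives. The SP/KLF call of IRF3 was lost under 3 of 10. IRF4, although it correlated so closely with IRF5, was not called with the CRX/OTX score (0.022, edgeR adjusted p = 0.401) or the proneural score (-0.0040, edgeR adjusted p = 0.897), where IRF5 was. Whether IRF4 and IRF5 differed from each other was not tested.

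Counted together, 2 of the 8 IRF motifs were called higher and 1 lower in CRX/OTX-high cells, where 27.6% of all motifs were called higher and 29.7% lower. In TEAD-high cells 2 were higher and 5 lower (background 40.8% and 39.4%), and in SOX-high cells 1 was higher and 5 lower (36.3% and 40.1%). In proneural-high cells 5 were higher and 2 lower (38.5% and 24.2%). In POU4F-high cells 1 was higher and 5 lower (28.3% and 31.6%), and in SP/KLF-high cells 3 and 1 (36.3% and 42%). The median log2 fold of the 8 was 0.030 for CRX/OTX, 0.043 for proneural, 0.024 for SP/KLF, -0.045 for TEAD, -0.044 for SOX and -0.042 for POU4F. The median over all motifs lay between -0.0058 and 0.0084 in these comparisons.

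**Figure D4:**
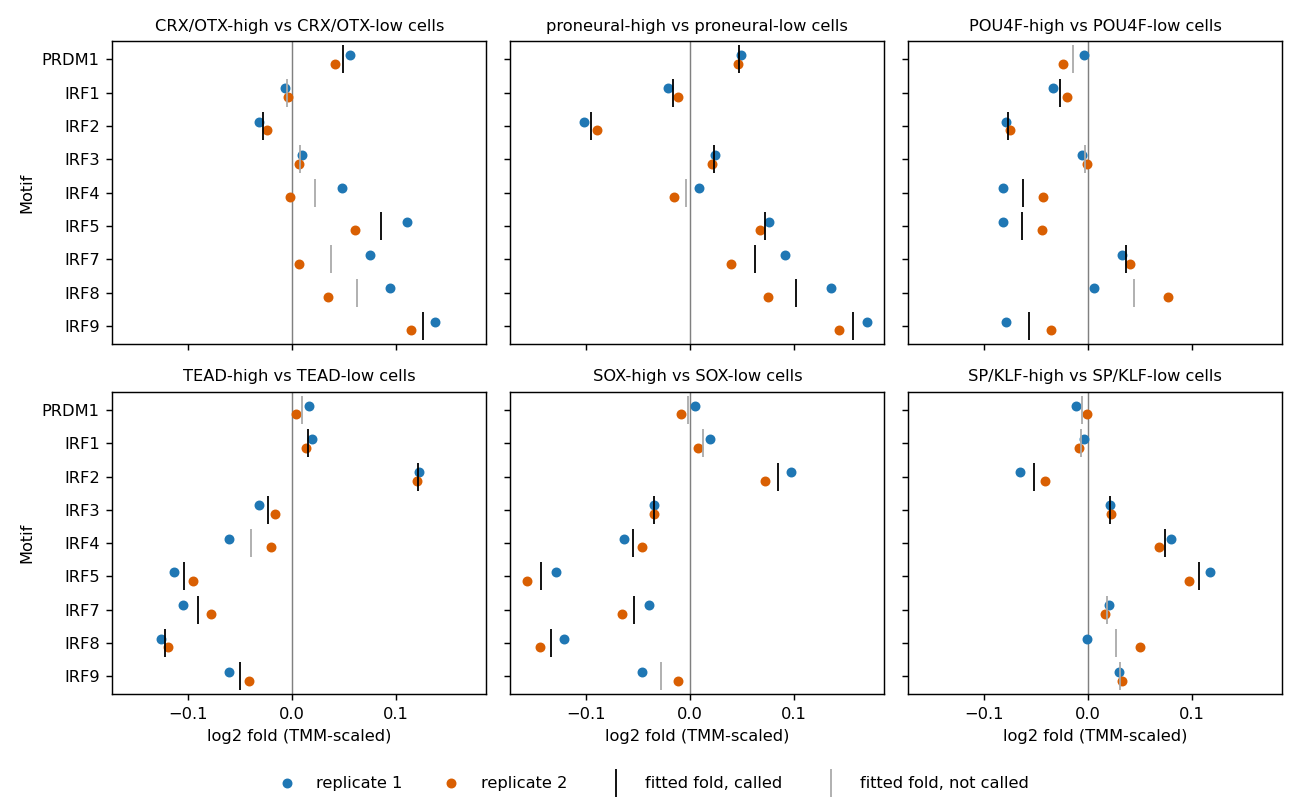
log2 fold (horizontal axis, after TMM scaling) of the 9 members between the highest and lowest quintile of cells by 6 family scores; dots are the 2 libraries, black ticks the fitted folds called by edgeR and grey ticks those not called. PRDM1 lies right of 0 with the CRX/OTX and proneural scores and near 0 with TEAD, SOX and SP/KLF, while IRF2 lies on the side opposite to IRF9 with CRX/OTX, proneural, TEAD, SOX and SP/KLF scores and on the same side with POU4F.

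Cells were also clustered with the 9 members left out, so that their levels could be read in clusters they did not define. The clustering gave 6 clusters. Cluster 4, with 116 and 127 of the cells in the libraries, was neurogenic-like, with 6 of its 10 leading motifs on that list, NEUROD1 first. Cluster 5, with 144 and 163, was ganglion cell-like, led by POU4F1, POU4F3 and POU4F2. The other 4 stayed unnamed: cluster 3 had Sox1, SOX4 and SOX8 among its leading motifs, cluster 2 was deep and cluster 6 was shallow. Cluster 3 was deep too, with a median total 1.17 and 1.23 times that of its library, against 1.28 and 1.29 for cluster 2. The median total of cluster 6 was 0.61 and 0.68 times that of its library, and Crx and Dmbx1 were among its leading motifs. No cluster was named photoreceptor-like or microglia-like. The mean log2 fold of the photoreceptor motif list was highest in cluster 6, at 0.055, against 0.014 in cluster 4. The 8 microglia motifs (SPI1, SPIB, SPIC, RUNX and C/EBP) had a mean log2 fold between -0.029 and 0.027 in every cluster.

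PRDM1 was highest in the neurogenic-like cluster and lowest in the ganglion cell-like cluster in both libraries. In the neurogenic-like cluster it stood at 276 CPM in replicate 1 and 265 CPM in replicate 2, which was 0.043 and 0.042 above the mean of the other clusters on the log2 scale. In the ganglion cell-like cluster it stood at 263 and 251 CPM, with log2 differences of -0.043 and -0.054. The 4 unnamed clusters lay between, at 267 to 273 CPM in replicate 1 and 258 to 261 CPM in replicate 2. The whole range over clusters was 0.075 on the log2 scale, against a median range of 0.12 over all motifs.

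IRF9 had the same top and bottom cluster, with 79.3 and 79.7 CPM in the neurogenic-like and 70.0 and 68.9 CPM in the ganglion cell-like cluster. IRF8 was highest in the neurogenic-like cluster too, at 31.8 and 33.9 CPM. IRF1 and IRF2 peaked in cluster 3, where IRF2 reached 222 and 218 CPM against 197 CPM in the ganglion cell-like cluster in both libraries. IRF3, IRF4 and IRF5 were highest in the shallow cluster 6 and lowest in the deep cluster 2. IRF5 stood at 43.7 and 39.9 CPM in cluster 6 and at 36.0 and 34.9 CPM in cluster 2. Between the deepest and shallowest tercile of cells, the log2 ratio of IRF5 was -0.043 and -0.067, that of IRF4 -0.025 and -0.057, and that of IRF3 -0.021 and -0.0058. For IRF2, highest in the deep cluster 3, it was 0.027 and 0.036, and for IRF1 0.0055 and 0.0076. The part of depth in these cluster levels was not tested.

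All 9 members differed among clusters by the edgeR test, with adjusted p-values from 7.52e-10 (IRF1) to 0.00229 (IRF4) and 7.45e-05 for PRDM1. Among all motifs 97.9% were called, so a call says little of the members. With no replicate block, when the shift between libraries counts as noise, only IRF2 and IRF9 were called (edgeR adjusted p = 0.000164 and 0.00297), while 60.1% of all motifs were.

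**Figure D5:**
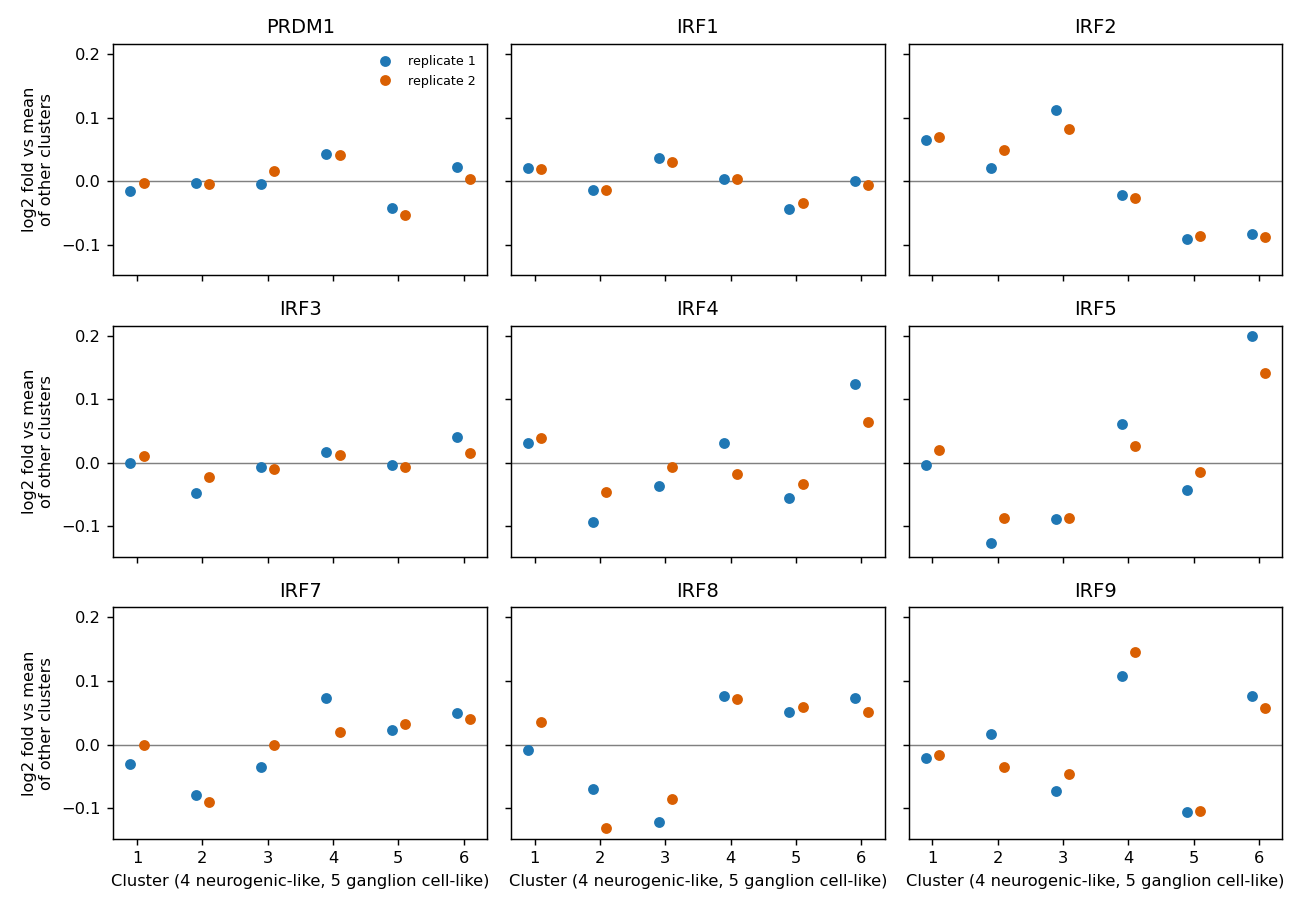
log2 fold of each member in a cluster against the mean of the other clusters (vertical axis) for the 6 clusters built without the members (horizontal axis); dots are the 2 libraries. PRDM1 and IRF9 peak in neurogenic-like cluster 4 and are lowest in ganglion cell-like cluster 5, and IRF2 peaks in cluster 3.

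These folds are small, and each fit had 1 residual degree of freedom among the sums of 2 libraries, so the p-values lean on the spread shared over motifs. With no replicate block, none of the PRDM1 folds was called: the edgeR adjusted p was 0.528 with the CRX/OTX score, 0.504 with the proneural score and 0.830 with the IRF score. Of all 579 motifs, 0 were then called with the CRX/OTX and IRF scores and 5.70% with the proneural score, so the loss touched nearly all motifs.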

How the data were processed

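The authors deposited, per library, a matrix of raw counts of 579 motifs by barcode; per the file headers it was written by software version 1.1.0. Cell Ranger and the mouse build mm10 are named in the submitters' processing notes. For peak calling and motif search, settings were not given in the sources used here. The members and all motif lists were chosen with earlier results of these data known. Motif identities are names only, so no motif sequence is printed.

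Kept cells had at least 300000 counts and more than the same barcode in the other library. Barcodes not kept had median totals of 28507.5 and 37400 counts. No doublet caller was run. Correlations used log2(CPM + 1) with log10 cell total regressed out within a library (Python 3.11.15, numpy 2.4.6). Named in the text are all 9 members, the 3 motifs outside the list most correlated with each, and the partner list; some of these motifs are not reported here. Clusters came from scanpy 1.11.5 and igraph 0.11.9 (15 principal components, 20 neighbours, Leiden resolution 0.5, at least 20 cells per cluster and library); a name needed 3 listed motifs among the 10 of highest fold.

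Counts summed per library and cell group were tested with edgeR 4.0.16 (R 4.3.3; quasi-likelihood F test, TMM, library as a block because both cell groups of a library share it), with Benjamini-Hochberg adjustment over 579 motifs and a threshold of 0.05. The negative binomial dispersion was set to 0, since with the estimated one edgeR returned negative F values for some motifs; the estimated dispersion and limma 3.58.1 were added as alternatives, and DESeq2 1.42.0 was another. On simulated data for the CRX/OTX comparison over 579 motifs, 97 of 100 motifs changed 1.05-fold were called. So were 100 of 100 changed 1.2-fold and 7 of 379 unchanged ones. The spread between simulated cell groups was set by hand, not estimated from these data, and the motifs were drawn independently. These rates therefore check the code and do not give the power or error rate for the real motifs. Cuts sharing a fragment are not independent, so the noise estimates cover counting error only.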

Additional observations from a re-analysis of the deposited data

How the results depend on the processing

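Across the alternatives other than leaving out a replicate, 144 of the 222 values for PRDM1, for the IRF counts and for the clusters kept their direction and side of the threshold, a count staying within 1.5 times. The CRX/OTX fold of PRDM1 kept its call under every alternative that gave a test except no replicate block, and without either replicate, with no test possible, it ranged from 0.042 to 0.056. With no replicate block the log2 folds of PRDM1 were 0.031 with the IRF, 0.049 with the CRX/OTX and 0.047 with the proneural score, none called. The IRF motifs called higher were then 1 with TEAD and 0 with the other scores, those lower were 0 with every score, and 2 members differed among clusters. Over all motifs, that fit called 0% with the IRF and CRX/OTX scores, 5.70% with proneural and POU4F, 21.4% with TEAD, 26.1% with SOX and 30.7% with SP/KLF. PRDM1 with the IRF score was not called with DESeq2 (0.029), with the highest and lowest deciles of cells (0.038) or in the middle tercile by depth (0.015). With the proneural score it was not called in the middle tercile (0.022) or with CRX/OTX regressed out (0.023). With POU4F it became called with no TMM (-0.024), deciles (-0.035), the middle tercile (-0.033), SP/KLF regressed out (-0.035) and limma (-0.024). Some uncalled PRDM1 folds near 0 changed sign: with TEAD for deciles (-0.013); with SOX for DESeq2 (0.0042), no TMM (0.0090), a mean count of at least 100 (0.0017), deciles (8.2e-05), the middle tercile (0.0033), the deepest decile left out (0.0052), limma (0.0090) and, with no test, without replicate 2 (0.0045); and with SP/KLF for no TMM (0.0013), deciles (0.0032), a minimum of 1000000 counts (0.0030), the middle tercile (0.019) and limma (0.0011).

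Among single IRF motifs, the CRX/OTX folds that changed sign were IRF1 with SP/KLF (0.00061) or proneural (0.016) regressed out, IRF2 (0.033) and IRF8 (-0.0015) with proneural regressed out, and IRF4 in the middle tercile (-0.0017) and without replicate 1 (-0.0024). Without replicate 2, IRF4 changed sign with proneural (0.0083) and IRF8 with SP/KLF (-0.0011). IRF1 changed sign with TEAD for deciles (-0.0016) and with SP/KLF for no TMM (0.00055) and limma (0.00095). IRF3 changed sign with POU4F for a mean count of at least 100 (0.00036), the middle tercile (0.0026) and the deepest decile left out (0.0031). The correlations of PRDM1 with the SOX and SP/KLF scores were -0.0078 and 0.097 in the middle tercile. Of the IRF counts, CRX/OTX higher was 4 with a mean count of at least 100, deciles, a minimum of 1000000 counts, SP/KLF regressed out and proneural regressed out. CRX/OTX lower was 0 with DESeq2, a minimum of 1000000 counts, the middle tercile, and either score regressed out. TEAD higher was 1 with deciles. SOX higher was 2 in each alternative that moved it other than no replicate block, and SOX lower was 3 in the middle tercile and with SP/KLF regressed out and 2 with the estimated dispersion. Proneural higher was 3 with DESeq2 and no TMM and 1 with deciles, the middle tercile and CRX/OTX regressed out. POU4F higher was 0 with DESeq2, no TMM, deciles, a minimum of 1000000 counts, the middle tercile and limma. POU4F lower was 3 with DESeq2, the middle tercile, SP/KLF regressed out, the deepest decile left out and the estimated dispersion. The cause of these changes was not tested. Depth limits the single-cell values: counting noise of 2 times Poisson made up most of the variance among cells of every member other than IRF1, and 1 cell held no IRF8 and 2 held no IRF4 count, all in replicate 2.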
